A study of Mus musculus with 12 samples.

Results

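L2, CR1 and RTE are old families of LINE elements, and their RNA was followed here through an anti-ORF1p immunoprecipitation from *Mael*-/- mouse testes. Members were taken by name: every repeat locus annotated as family L2, CR1 or RTE, with the subfamilies these loci belong to. The rule gave 16124 loci of 781935 repeat loci in the mm10 tables, and 24 subfamilies of 1528. L2 accounted for 13060 loci in 4 subfamilies (L2, L2a, L2b and L2c). CR1 accounted for 2726 loci in 15 subfamilies, of which L3 is the largest with 1916 loci. RTE accounted for 338 loci in 5 subfamilies, 4 of type RTE-X (L4_A_Mam, L4_B_Mam, L4_C_Mam and L5) and 1 of type RTE-BovB (X3_LINE). The rule reads names and no measured value, but these families were picked for description with earlier results of these data known.

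LINE elements are retrotransposons that copy themselves through an RNA intermediate and a reverse transcriptase that they encode. L1 is the LINE family that is still active in mice, and ORF1p is the RNA-binding protein encoded by its first open reading frame. ORF1p binds preferentially the L1 RNA from which it was translated. L2, CR1 and RTE elements stopped moving long ago in the lineage that led to mice. Their copies are short, diverged fragments that lie in introns, untranslated regions and intergenic DNA, and MIR, an old SINE, shares its 3′ end with L2. The copies therefore do not code for an ORF1p, and their RNA can be read as part of longer host transcripts.

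All 12 libraries came from testes of C57BL/6 *Mael*-/- mice of 3 months of age, in 4 groups of 3, and no heterozygous or wild-type library was analysed here. *Mael* encodes Maelstrom, a protein of the piRNA pathway that keeps transposons silent in male germ cells. TOTAL is RNA of the whole clarified testis extract in 10 mM EDTA. INPUT is RNA of pooled fractions 5 to 8 from a sucrose gradient of that extract, where EDTA has taken ribosomes apart. IP is RNA eluted from beads that carried a rabbit monoclonal antibody to L1 ORF1p and were incubated with INPUT. BO (beads only) is RNA eluted from beads that carried no antibody and were incubated with the same material, so that it measures binding to the carrier. Library preparation, after depletion of rRNA, started from 200 ng of TOTAL or INPUT RNA but only 20 to 40 ng of IP RNA, and BO was taken at the volume used for IP. The series describes the libraries of a group as biological replicates, and whether libraries with the same number came from 1 extract is not given in the sources used here.

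The mean normalized count of *Mael* itself was 0.65 in TOTAL, 0.502 in BO and 0 in INPUT and IP. All 5 spermatocyte genes checked in TOTAL were present, from 202 (*Spo11*) to 9433 (*Sycp1*). Of 5 spermatid genes, *Prm1* was at 22, *Prm2* at 13.2, *Tnp1* at 30.1, *Acrv1* at 11.7 and *Spaca1* at 231. Lists of 5 genes each for Sertoli and Leydig cells ranged from 150 to 10791 and from 1744 to 29894, so that RNA of somatic cells was part of the extract. Markers moved with the pull-down: the 5 spermatocyte genes summed to 7887 in BO, 19618 in INPUT and 19785 in TOTAL but to 97489, 127808 and 127077 in IP of the same tables, with all 5 over 2-fold higher in each. The 5 spermatogonial genes summed to 5529 in BO against 2284 in IP, with 2 over 2-fold higher and 2 lower, and to 4832 in INPUT and 5252 in TOTAL against 2992 and 2984, with 1 lower in each. The spermatid genes summed to 42.3 in BO against 180 in IP, with 1 over 2-fold higher, to 106 in INPUT against 236, with 1 higher and 3 lower, and to 308 in TOTAL against 235, with 4 lower. The 5 Sertoli genes summed to 8290, 9675 and 17840 against 3154, 4133 and 4124 in IP, with 3, 3 and 4 of them over 2-fold lower. The 5 Leydig genes summed to 5666 in BO against 11645 in IP, with 2 over 2-fold higher, but to 42334 in INPUT and 77573 in TOTAL against 15260 and 15225, with 4 and 5 over 2-fold lower. The 4 genes of peritubular, vessel and blood cells summed to 1506 in BO against 2937 in IP, with 3 over 2-fold higher, and to 3942 in INPUT and 6895 in TOTAL against 3853 and 3836, with 1 and 2 over 2-fold lower. The part of such host RNA in the values below was not tested. Reads on repeat subfamilies numbered 6021800 to 7282171 per library in TOTAL, 3045169 to 3880641 in INPUT, 1712212 to 3512997 in BO and 1384904 to 2003193 in IP. The 24 subfamilies held between 17744 reads (IP replicate 1) and 47909 reads (BO replicate 1) per library. In BO replicate 3, LSU rRNA held 52.1% of repeat reads, against 3.18% and 3.25% in the other BO libraries. The RNA 7SL held 38.1% to 51.6% of repeat reads in TOTAL and 1.16% to 1.63% in IP.

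The first question was how much of the RNA belonged to these families in each group. The summed normalized count of the 24 subfamilies averaged 27282 in TOTAL (SD 703, n = 3), 29492 in INPUT (SD 198), 29825 in BO (SD 832) and 27223 in IP (SD 1055). The normalized count is a library's reads on a subfamily divided by a factor that sets the 75th percentile over subfamilies to the same value in every library. The sums in IP (26099, 27376 and 28193) overlapped those in TOTAL (26828, 28092 and 26926) and lay below all 3 in INPUT (29268, 29642 and 29566) and in BO (29860, 30639 and 28977). The groups are portions of testis extract and not cell populations, so these sums give neither a number of cells nor an amount of RNA per cell.

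As a share of all reads on transposable elements (LINE, SINE, LTR and DNA subfamilies), the 24 subfamilies held 1.52% to 1.67% in TOTAL and 1.59% to 1.72% in INPUT. They held 1.56% to 1.58% in BO and 1.48% to 1.71% in IP, and the range of IP spans those of TOTAL and BO. As a share of LINE reads alone, they held 4.99% to 6.44% in IP, below every library of BO (7.06% to 7.67%), TOTAL (6.96% to 8.39%) and INPUT (8.02% to 9.59%). Nearly all other LINE subfamilies in mouse belong to L1. As a share of all repeat reads, a scale that includes 7SL and rRNA, they held 0.409% to 0.596% in TOTAL, 1.01% to 1.02% in INPUT and 1.28% to 1.44% in IP. In BO they held 1.36%, 1.38% and 0.645%, so that 2 of the 3 bare-bead libraries lay within the range of IP.

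The L2 subfamilies were the most abundant, followed by L3. L2a made up 28.9% to 33.8% of the summed normalized count of the 24 subfamilies, L2 21.5% to 24.5%, L2b 11.6% to 16.5%, L2c 12.7% to 15.8%, L3 9.86% to 11.7% and L3b 1.64% to 2.22%. A mean over all 12 libraries of at least 10, required for testing, was reached by 21 of the 24. X1_LINE, X2_LINE and X7D_LINE did not pass, and their 3 libraries per group held between 0 and 24 reads each.

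L2a, the most abundant subfamily, had normalized counts of 8597, 8789 and 8416 in TOTAL and of 9340, 9251 and 9104 in INPUT. In BO its counts were 9997, 10352 and 9604, and in IP they were 7546, 8226 and 8384. All 3 IP libraries lay below all 9 others. L2 had counts of 6287, 6461 and 6381 in TOTAL, 6370, 6619 and 6461 in INPUT, 7317, 7162 and 6719 in BO and 5666, 5877 and 6234 in IP, so that BO was again the highest group and IP the lowest. L2b had counts of 3905, 4380 and 4238 in TOTAL, 4203, 4694 and 4888 in INPUT, 3452, 3648 and 3663 in BO and 4017, 4019 and 4064 in IP. Here the order of the pull-downs was turned: BO lay below all libraries of the other groups, and IP was within the range of TOTAL.

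L2c had counts of 3691, 3949 and 3700 in TOTAL, 4123, 4224 and 4284 in INPUT, 3904, 3900 and 3882 in BO and 4132, 4271 and 4389 in IP. The IP libraries of L2c overlapped INPUT and lay above BO and TOTAL. L3, the main CR1 subfamily, had counts of 2744, 2836 and 2655 in TOTAL, 3265, 3125 and 3038 in INPUT, 3354, 3530 and 3310 in BO and 3062, 3025 and 3225 in IP. TOTAL was its lowest group and BO its highest. L3b had counts of 439.3, 561.9 and 477.6 in TOTAL, 622.9, 593.5 and 573.7 in INPUT, 564.7, 612.8 and 644.6 in BO and 528, 601.8 and 620.4 in IP. All TOTAL libraries lay below all libraries of INPUT and BO, and IP overlapped each of the other groups.

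**Figure D1:**
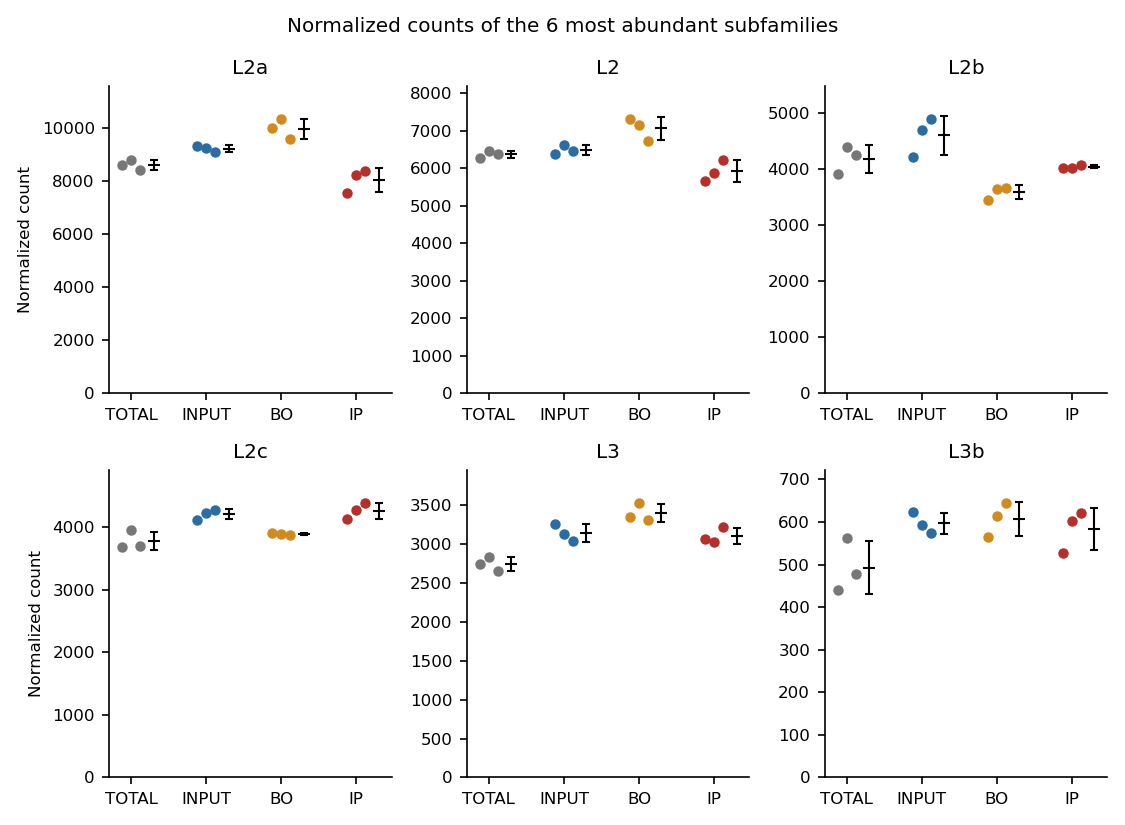
Normalized counts (y axis, from 0) of the 6 most abundant subfamilies in the 4 groups. Points are the 3 libraries of a group, and the bar beside them is the mean ± SD. L2a and L2 are highest in BO and lowest in IP, whereas L2b is lowest in BO.

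The next question was whether any of these families was retained with ORF1p. On the deposited scale, no subfamily of the 21 was called higher in IP in any of the 3 comparisons. The test was limma on log2(normalized count + 1), fitted on all 1180 subfamilies that passed the filter, with Benjamini-Hochberg adjustment over them. Calls needed an adjusted p under 0.05 and a change of over 2-fold. In IP vs. BO, 5.08% of the 1180 were called higher and 3.81% lower. Against INPUT the shares were 3.22% higher and 2.88% lower, and against TOTAL 2.88% higher and 3.47% lower.

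Against BO, 0 of the 21 subfamilies were called in either direction, with 5 at an unadjusted p under 0.05, and edgeR and DESeq2 on recovered reads also called 0. Against INPUT, 2 were called lower, X6B_LINE and X7A_LINE, both of the CR1 family. Against TOTAL, 1 was called lower, X7A_LINE. At an adjusted p under 0.05 and any size of change, a rule added after the data had been seen, 0 subfamilies were higher and 3 lower than in BO, 0 higher and 3 lower than in INPUT, and 2 higher and 1 lower than in TOTAL. Over all subfamilies tested this rule called 11.3% higher and 23.2% lower than in BO, 11% higher and 16.7% lower than in INPUT, and 10.2% higher and 12.5% lower than in TOTAL. The median log2 fold change of the 21 subfamilies was -0.09 against BO, -0.04 against INPUT and 0.16 against TOTAL, where the medians over all subfamilies were -0.12, -0.06 and -0.05. When libraries are scaled to their total of repeat reads instead, the median of all subfamilies moves to 0.36, 0.47 and 1.49, and the members keep medians of 0.39, 0.51 and 1.64. On that scale 19 of the 21 members were called higher than in TOTAL, where 85.9% of all subfamilies were, and 0 were called higher than in BO or INPUT, where 10.6% and 10.7% of all were. On the deposited scale, 1 member, X5A_LINE, was called higher than in TOTAL with a replicate block or without TOTAL replicate 3, beside 2.88% and 2.8% of all subfamilies.

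The abundant subfamilies gave narrow intervals. L2a was lower in IP than on bare beads, by a log2 fold change of -0.31 (95% interval -0.44 to -0.18, adjusted p = 0.00194 from limma), although it turned to 0.18 when libraries were scaled to their totals. L2 had -0.25 (95% interval -0.39 to -0.12, adjusted p = 0.00609 from limma), and 0.24 on the scale of library totals. L2 passed neither with edgeR (-0.12, adjusted p = 0.141) nor with DESeq2 (-0.13, adjusted p = 0.0935), whereas L2a passed with both (-0.18, adjusted p = 0.0295, and -0.19, adjusted p = 0.00307). L2b and L2c had positive values, 0.17 and 0.13, which did not pass (adjusted p = 0.0845 and 0.0944 from limma). Over the summed means of their single loci, described below, both were negative, at -0.36 and -0.55. Those means have their own scaling, in which the median repeat locus with a mean of at least 10 was at -0.90. The subfamily values of L2b and L2c did pass at a somewhat larger size with edgeR (0.30, adjusted p = 0.013, and 0.26, adjusted p = 0.00463), with DESeq2, and with libraries scaled by median ratios or to reads on transposable elements (0.25 to 0.32). On those scales L2a remained below 0, at -0.19 and -0.16 (adjusted p = 0.0176 and 0.153 from limma). Over the 6 most abundant subfamilies, the highest upper bound of any interval was 0.32 against BO (L2b), 0.19 against INPUT (L3b) and 0.47 against TOTAL (L3b), that is 1.25-fold, 1.14-fold and 1.39-fold. On the deposited scale, the intervals of these 6 do not reach a 2-fold gain in IP.

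Against INPUT, the value of L2a was -0.20 (95% interval -0.33 to -0.06, adjusted p = 0.0305 from limma), while scaling to library totals gave 0.35. This call was lost without any 1 of INPUT replicate 1, 2 or 3 or IP replicate 1 or 2, with adjusted p from 0.0622 to 0.0984, and with edgeR (adjusted p = 0.0754). The values of L2c and L3 against INPUT were 0.02 (95% interval -0.10 to 0.14) and -0.02 (95% interval -0.15 to 0.11). Against TOTAL, L2c was higher by 0.17 on the log2 scale (95% interval 0.05 to 0.30, adjusted p = 0.0432 from limma), and by 1.72 on the scale of library totals. That call was lost without TOTAL replicate 1, 2 or 3 or IP replicate 2 or 3, with adjusted p from 0.0515 to 0.125. L3 and L3b had values of 0.18 and 0.25 against TOTAL, which did not pass (adjusted p = 0.0531 and 0.109 from limma).

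On the deposited scale, limma on all 12 libraries without a block called no RTE subfamily in any comparison, at any size of change. On the scale of library totals, 19 of the 21 members were called higher than in TOTAL, RTE subfamilies among them, where 85.9% of all subfamilies were. L4_A_Mam, the most abundant of them, had counts of 358, 319 and 295 in TOTAL, 376, 269 and 271 in INPUT, 357, 329 and 321 in BO and 343, 455 and 351 in IP. Relative to INPUT, IP stood at 0.33 on the log2 scale (95% interval 0.01 to 0.65, adjusted p = 0.121 from limma), and the groups overlapped. L4_B_Mam had a value of 0.47 in IP vs. TOTAL (95% interval 0.05 to 0.89, adjusted p = 0.104 from limma). X3_LINE, the only member related to BovB, had values between -0.19 and -0.11 in the 3 comparisons with IP. Its libraries held between 21 and 60 reads.

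**Figure D2:**
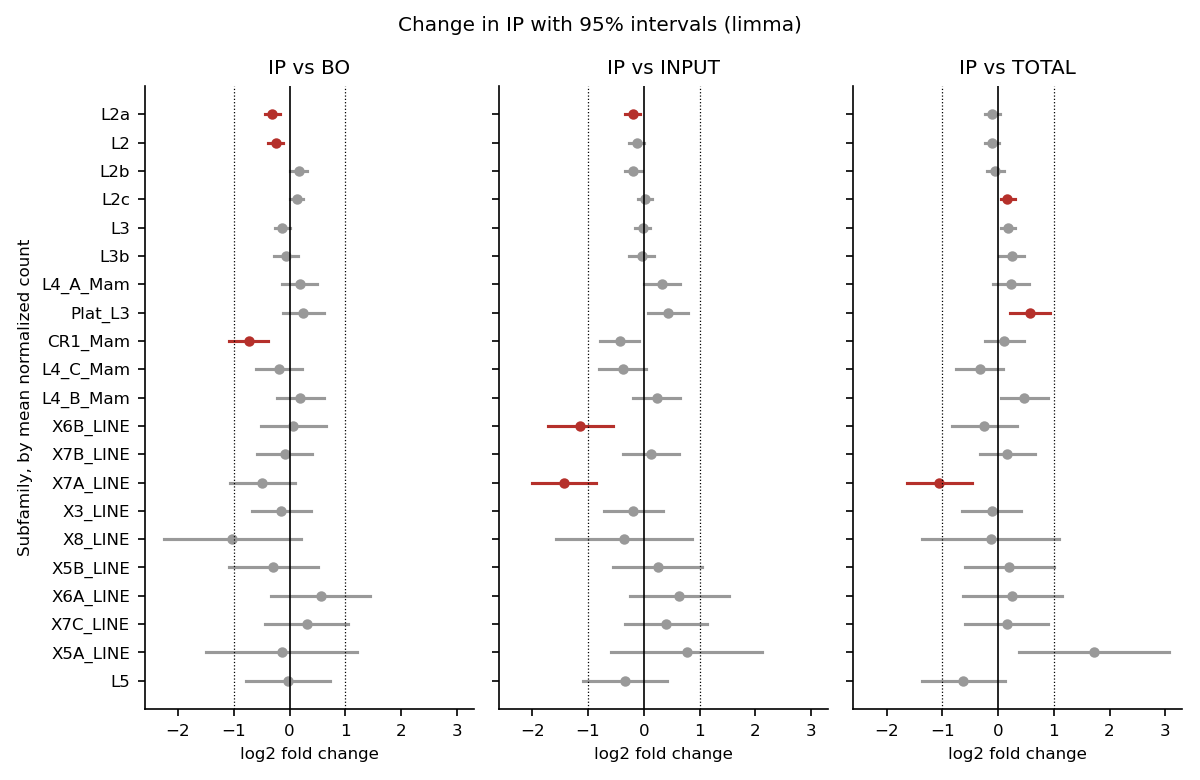
Log2 fold change (x axis) of each of the 21 tested subfamilies (y axis, most abundant at the top) in IP against BO, INPUT and TOTAL. Lines are 95% intervals from limma, red marks an adjusted p under 0.05, and dotted lines mark a 2-fold change. No red point lies beyond 2-fold on the side of IP.

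The subfamilies that passed the 2-fold limit were small ones. X7A_LINE had counts of 38.4, 46.1 and 39.4 in TOTAL, 50.7, 53.9 and 56.7 in INPUT, 24.9, 26.0 and 32.1 in BO and 13.2, 17.9 and 30.2 in IP. It was highest in INPUT, and both pull-downs lay below both starting materials. Relative to INPUT, X7A_LINE fell to -1.43 in IP on the log2 scale (95% interval -2.01 to -0.85, adjusted p = 0.0021 from limma), and it stayed past the threshold without any 1 library, with values from -1.74 to -1.17. It was lost on the scale of library totals (-0.91, adjusted p = 0.131 from limma). Relative to TOTAL the value was -1.05 (adjusted p = 0.0158 from limma, and 0.44 on the scale of library totals), a call lost without TOTAL replicate 2 (adjusted p = 0.0568) or IP replicate 1 (0.0539) or 2 (0.0533) and in a fit of IP and TOTAL alone (0.0675). With edgeR, DESeq2 or a pseudocount of 10 it passed the adjusted p but not the 2-fold limit, at -0.93, -0.91 and -0.79. Depth was low, with 9, 14 and 31 reads in the 3 IP libraries and 54 to 75 in INPUT.

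X6B_LINE had counts of 63.1, 52.7 and 34.0 in TOTAL, 116, 76.7 and 83.9 in INPUT, 45.5, 44.2 and 28.9 in BO and 33.8, 42.3 and 46.8 in IP. INPUT stood above all other libraries, and IP and BO overlapped. Compared with INPUT, IP was at -1.14 on the log2 scale (95% interval -1.72 to -0.55, adjusted p = 0.00786 from limma), and compared with BO at 0.07 (95% interval -0.52 to 0.65). Without INPUT replicate 1 it was -0.97 (adjusted p = 0.0375 from limma), inside the 2-fold limit, and on the scale of library totals it was -0.61 (adjusted p = 0.301 from limma).

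CR1_Mam and Plat_L3 were singled out after their values had been seen, because they passed the adjusted p at a smaller change. CR1_Mam had counts of 111, 111 and 103 in TOTAL, 166, 143 and 166 in INPUT, 215, 226 and 151 in BO and 107, 109 and 137 in IP. All IP libraries lay below all BO libraries, with a log2 fold change of -0.73 (95% interval -1.08 to -0.38, adjusted p = 0.00395 from limma). On the scale of library totals it was -0.24 (adjusted p = 0.696 from limma), which did not pass. Plat_L3 had counts of 129, 181 and 174 in TOTAL, 172, 168 and 184 in INPUT, 176, 259 and 176 in BO and 252, 243 and 218 in IP. It was higher in IP than in TOTAL by 0.57 on the log2 scale (95% interval 0.21 to 0.93, adjusted p = 0.0313 from limma), with all IP libraries above all TOTAL libraries, and by 2.11 on the scale of library totals. The call of limma was lost without TOTAL replicate 1 (adjusted p = 0.105) or IP replicate 1 (0.0929) or 2 (0.0851). Its value against BO, 0.24 (95% interval -0.12 to 0.61), did not pass.

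**Figure D3:**
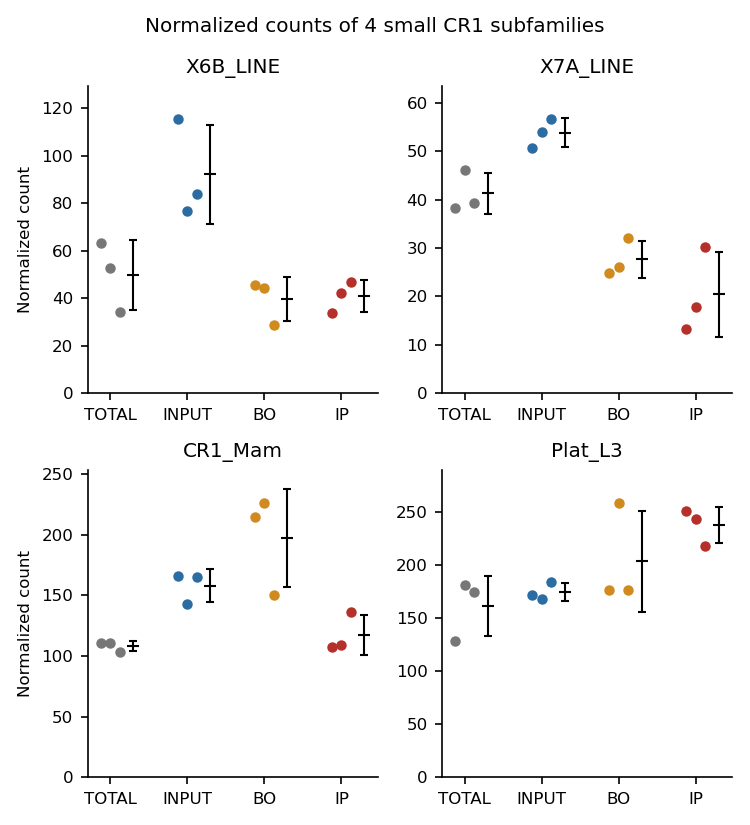
Normalized counts (y axis, from 0) of 4 small CR1 subfamilies in the 4 groups, with points for libraries and the mean ± SD beside them. X6B_LINE and X7A_LINE are highest in INPUT, CR1_Mam in BO and Plat_L3 in IP.

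The highest value of a member in IP was that of X5A_LINE against TOTAL, 1.72 on the log2 scale (95% interval 0.37 to 3.07). It did not pass (adjusted p = 0.0664 from limma), and TOTAL held only 2, 6 and 16 reads of it. Without TOTAL replicate 3 it passed, at 2.43 (adjusted p = 0.0122 from limma), and so it did with a replicate block (adjusted p = 0.0412) and on the scale of library totals (3.10, adjusted p = 1.05e-05). Without TOTAL replicate 1 it was 0.92 (adjusted p = 0.205 from limma), and with edgeR and DESeq2 it was 1.51 (adjusted p = 0.111) and 1.48 (adjusted p = 0.0703).

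The 2 remaining comparisons asked what fractionation and the bare beads did to these RNAs. Between INPUT and TOTAL, 0 of the 21 subfamilies were called in either direction, with 5 at an unadjusted p under 0.05, while over all subfamilies 0% were called higher and 0.339% lower. At any size 0 members passed either way, against 0.847% of all subfamilies higher and 0.847% lower. With libraries scaled to their total of repeat reads, 16 of the 21 were called higher in INPUT by 2-fold and 17 at any size, where 54% and 78.1% of all subfamilies were. For these groups, each pair of libraries with the same number deviated together (r = 0.629, 0.339 and 0.321), although TOTAL replicate 2 with INPUT replicate 3 (0.331) and TOTAL replicate 3 with INPUT replicate 2 (0.243) did so to a like degree. With the number as a block in a limma fit of INPUT and TOTAL alone, 4 were higher at any size and 0 by 2-fold, beside 7.37% and 0% of all subfamilies in that fit. The 4 were L3 (0.19, adjusted p = 0.0213), L2c (0.16, adjusted p = 0.0428), CR1_Mam (0.54, adjusted p = 0.0249) and X6B_LINE (0.89, adjusted p = 0.0213). DESeq2 on recovered reads put 2 of these, CR1_Mam and X6B_LINE, higher at any size, beside 2.63% of all subfamilies, and edgeR none.

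Between BO and INPUT, 0 members were called higher and 1 lower, X6B_LINE, at -1.20 (95% interval -1.79 to -0.62, adjusted p = 0.0054 from limma). Over all subfamilies 2.63% were higher and 2.8% lower. At any size, 0 members were higher and 3 lower, against 17.2% and 11.7% of all subfamilies. Besides X6B_LINE these were L2b (-0.35, 95% interval -0.51 to -0.20, adjusted p = 0.0031 from limma) and X7A_LINE (-0.94, adjusted p = 0.0197 from limma). The call of L2b held without any 1 library, with values from -0.42 to -0.31. That of X7A_LINE was lost without INPUT replicate 2 or 3 or BO replicate 1 or 2, with adjusted p from 0.0551 to 0.0679. On the scale of library totals the values were -1.16, -0.31 and -0.90 for X6B_LINE, L2b and X7A_LINE, and none passed.

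Other old repeats were set beside these families without a test of the lists. Of the 4 MIR subfamilies, 0 were called by 2-fold in any of the 5 comparisons, and their median log2 fold changes in IP were -0.10 against BO, -0.23 against INPUT and -0.04 against TOTAL. All 4 were lower than in INPUT at any size, beside 16.7% of all subfamilies. Of 84 tested L1 subfamilies with names that begin with L1M, which are old relatives of the active L1 elements, 1 was higher in each comparison of IP and 2 were lower than in BO. Their medians were -0.34, 0.01 and -0.06. At any size, 44 of the 84 were lower than in BO and 5 higher, beside 23.2% and 11.3% of all subfamilies. Of 68 tested hAT-Charlie subfamilies, which are DNA transposons, 2 were higher than in BO, 2 than in INPUT and 1 than in TOTAL, and 1 was lower than in INPUT, with medians of -0.10, -0.02 and 0.07. At any size, 16 of the 68 were lower than in BO and 4 higher, beside the same 23.2% and 11.3%. On bare beads, 43 of the 84 L1M subfamilies were higher than in INPUT at any size, as were 10 of the 68 hAT-Charlie subfamilies. The counts were 0 of 4 for MIR and 0 of 21 for ancient LINE subfamilies, beside 17.2% of all subfamilies. Lower at any size were 1 L1M, 6 hAT-Charlie, 1 MIR and 3 ancient LINE subfamilies, beside 11.7% of all. The difference between the lists was not tested.

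The balance within L2 was compared inside each library, where scaling drops out. These ratios were chosen after the values had been seen, and no test is given. The log2 ratio of L2a to L2b was 1.53, 1.50 and 1.39 in BO, and 0.91, 1.03 and 1.05 in IP. It ranged from 0.99 to 1.14 in TOTAL and was 1.15, 0.98 and 0.90 in INPUT, so that BO stood apart from all other libraries and the other groups overlapped. The log2 ratio of L2a to L2c was 0.87, 0.95 and 0.93 in IP, below all libraries of TOTAL (1.22, 1.15 and 1.19), INPUT (1.18, 1.13 and 1.09) and BO (1.36, 1.41 and 1.31). L3 relative to L3b had overlapping values in all groups, with means from 2.40 to 2.49 on the log2 scale. The summed CR1 subfamilies relative to the summed L2 subfamilies were lowest in TOTAL, at -2.66 to -2.59, and between -2.54 and -2.36 in all other libraries. MIR relative to the summed L2 subfamilies was 0.63 ± 0.04 (SD, n = 3) in IP, 0.62 ± 0.03 in BO, 0.64 ± 0.02 in TOTAL and 0.73 ± 0.04 in INPUT.

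The single loci were described next. For these the values used here are means over the 3 libraries of a group, and they are given without a spread or a test. The authors' own fold changes, errors and p-values for each locus were not used. Most loci were at or near 0. Of the 16124 loci, 5702 were at 0 in both groups of the comparison of IP with BO, 4478 in that with INPUT and 4877 in that with TOTAL. A value above 0 was listed for 7783 loci in IP, 6171 in BO, 8261 in INPUT and 7729 in TOTAL. The mean of the 2 groups reached 10 for 108 loci (IP and BO), 111 loci (IP and INPUT) and 87 loci (IP and TOTAL), or 0.67%, 0.688% and 0.54% of the members, where 0.711%, 0.85% and 0.791% of all repeat loci reached it. The 10 highest loci of a group held 9.94% of the summed signal of the members in BO, 9.95% in IP of the same table, 6.76% in INPUT and 8.19% in TOTAL.

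The low values show what 1 read is worth. A read in 1 of the 3 libraries added 0.239 to 0.502 to a mean in BO, 0.244 to 0.329 in INPUT, 0.209 to 0.326 in TOTAL and 0.331 to 0.419 to the IP mean beside INPUT. Summed over all members, the locus means stand for 26317 to 33314 reads in IP, against 68030 reads of the same subfamilies in the subfamily table, or 38.7% to 49% of them. The share was 34.9% to 47.1% in INPUT, and the loci do not hold all reads of their subfamilies. The loci are numbered within a subfamily, and the numbers of L2a run to 24247 where 4776 loci are listed.

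Loci past a 2-fold ratio of the group means, with 1 added to each, were counted among those with a mean of at least 10. This mean is taken over both compared groups, so a locus low in 1 of them is counted only where it is high in the other. In IP vs. BO, 16 of 108 loci were higher and 53 lower, or 14.8% and 49.1%, close to the 17.2% and 47.7% of all 5557 repeat loci. These counts moved with the centre: relative to the median repeat locus 25 were higher and 30 lower (30% and 25.7% of all repeat loci), and relative to the median gene 7 and 76 (8.3% and 64.7%). In IP vs. INPUT, 19 of 111 were higher and 32 lower, or 17.1% and 28.8%, against 22.1% and 31.2% of all repeat loci. In IP vs. TOTAL, 22 of 87 were higher and 14 lower, or 25.3% and 16.1%, against 24.1% and 24.3%. The median log2 ratios of the member loci were -0.95, -0.23 and 0.17, beside -0.90, -0.25 and 0.01 for all repeat loci and 0.81, 0.15 and -0.03 for genes. The shares of the members lie near those of the background or below them. Genes and repeat loci share 1 scaling in each table.

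By family, L2 had 13 of 84 loci higher (15.5%) and 41 lower (48.8%) than in BO, beside 17.2% and 47.7% of all repeat loci. CR1 had 2 of 23 higher (8.7%) and 12 lower (52.2%). Against INPUT, L2 had 16 of 87 higher (18.4%) and 27 lower (31%), beside 22.1% and 31.2% of all repeat loci. CR1 had 2 of 23 higher (8.7%) and 5 lower (21.7%). Against TOTAL, L2 had 17 of 67 higher (25.4%) and 11 lower (16.4%), beside 24.1% and 24.3%. CR1 had 4 of 18 higher (22.2%) and 2 lower (11.1%) there. RTE had a single locus with a mean of 10 against BO and INPUT, L4_B_Mam_171, and 2 against TOTAL. MIR loci had 13 of 144 higher and 81 lower than in BO, L1M loci 28 of 297 and 165, and hAT-Charlie loci 12 of 165 and 100. Coordinates and sequences of the loci were not used here, so their host transcripts are not named. Whether the locus counts used strand is not given in the sources used here, and reads of a host transcript and of a repeat within it cannot be told apart.

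**Figure D4:**
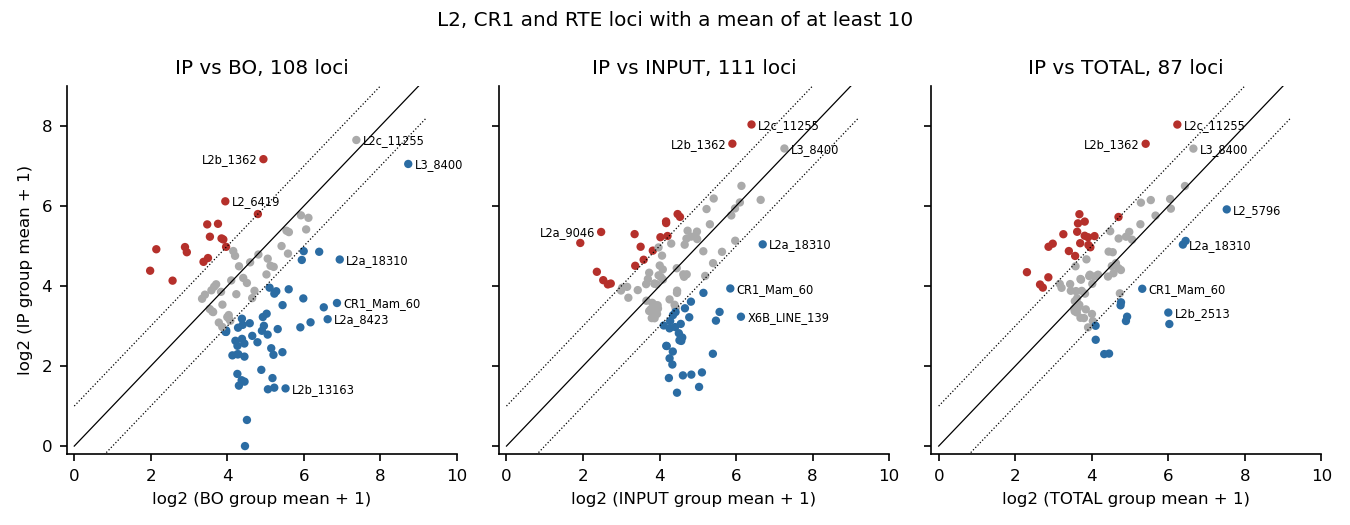
Group mean of each member locus with a mean of at least 10, as log2(mean + 1), in IP (y axis) against BO, INPUT and TOTAL (x axes). The solid line marks equality, dotted lines a 2-fold difference, and red and blue points loci that are higher or lower in IP. Of 108 loci beside BO, 53 lie below the lower line, with L3_8400 the highest in BO.

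Some single loci were far from the middle. L3_8400 had the highest mean over the 6 group values of the 3 tables, although L2c_11255 had higher means beside INPUT and TOTAL. L3_8400 stood at 423 in BO and 132 in IP of the same table, a log2 ratio of -1.68. It stood at 153 in INPUT and 99.9 in TOTAL, where IP was at 172 in each table (log2 ratios 0.17 and 0.78). This copy of L3 was thus the highest on bare beads, with 843 to 1771 reads behind the BO mean. L2c_11255 was at 165 in BO, 83.7 in INPUT and 74.4 in TOTAL, and at 200, 262 and 262 in IP of those tables. Its log2 ratios were 0.28, 1.63 and 1.80, so that IP exceeded the starting materials and was near the level of the bare beads.

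L2b_1362 was the only one of the 10 highest loci with at least a 2-fold higher mean in IP in all 3 tables. It stood at 29.8 in BO, 58.9 in INPUT and 41.5 in TOTAL, and at 143, 187 and 187 in IP. The log2 ratios were 2.23, 1.65 and 2.15, with 447 to 566 reads behind the IP mean beside INPUT. L2a_18310 was its opposite, at 122 in BO, 103 in INPUT and 82.4 in TOTAL, with IP at 24.3, 31.9 and 31.8 and log2 ratios of -2.28, -1.65 and -1.35.

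The other high loci were uneven. L2_6419 and L2c_4525 were low on bare beads (14.4 and 12.5) and near equal in IP, INPUT and TOTAL, with log2 ratios between -0.13 and 0.36 outside BO. L2_5796 was highest in TOTAL, with a log2 ratio of -1.61 there, and of 0.70 against INPUT and 2.07 against BO. L2a_900 and L3_7315 had log2 ratios between -0.49 and 0.80 in the 3 tables, and L2c_8487, at 54.7 in IP and 26.8 in BO, had 0.77 against INPUT and 0.13 against TOTAL. Only 6 member loci had a mean of at least 50 in all 3 tables, and of these L2c_11255 and L2b_1362 were higher in IP in all 3, and L2a_18310 lower in all 3.

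A wider set was chosen after the values had been seen. Of 68 member loci with a mean of at least 10 in all 3 tables, 8 were at least 2-fold higher in IP in every table and 4 were at least 2-fold lower, or 11.8% and 5.88%. Of all repeat loci with that mean, 17.1% were higher and 9.97% lower in every table. The 3 ratios share the IP libraries. Those higher were L2b_1362, L2_1507, L2_4555, L2_6711, L2a_9046, Plat_L3_76, Plat_L3_338 and L4_B_Mam_171. L2_1507 stood at 3.42 in BO against 29.3 in IP, and at 9.19 in INPUT against 38.3. L2a_9046 stood at 6.43 in BO against 30.4 in IP, and at 4.56 in INPUT against 39.8, which are 14 to 19 reads in INPUT. Those lower were L2a_18310, L2b_2513, CR1_Mam_60 and X6B_LINE_139. L2b_2513 stood at 46.5 in INPUT against 9.22 in IP, a log2 ratio of -2.22, and had -2.66 against TOTAL and -1.95 against BO.

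On bare beads, 26 of 108 loci with a mean of at least 10 had a BO value over 4-fold that of IP, with 1 added to each. That is 24.1%, close to the 23.5% of 5552 repeat loci listed in all 3 tables. The mean of 10 is taken over BO and IP together, so a locus near 0 in IP enters only where it is high in BO. For such loci the excess over IP follows from the filter. Of the 26, 11 were also at least 2-fold lower in IP than in INPUT (42.3%, beside 54.8% of the repeat loci that low against BO) and 10 than in TOTAL (38.5%, beside 38.3%). For these counts no mean was required in INPUT or TOTAL, so that some rest on few reads. L2b_1171, at 1.3 in TOTAL (4 to 6 reads) and 0 in IP, is 1 of the 10. L2b_1171 was at 21.0 in BO and at 0 in IP, and at 0.544 in INPUT, which is 2 reads. L2b_13163 was at 45.0 in BO and 1.72 in IP, and L2a_8423 at 97.5 and 8.01. L2_3257, L2_3258 and L2_3259, whose numbers follow each other, were all high in BO (35.3, 36.5 and 28.6) and low in IP (2.25, 1.75 and 2.75). L2c_5316 and L2c_5317 were also alike, at 34.9 and 30.6 in IP and at 13.9 and 14.7 in BO. Over all 5088 pairs of member loci with consecutive numbers in 1 subfamily, log2(mean + 1) had a Pearson correlation of 0.23 in INPUT, 0.21 in BO and 0.20 in IP and in TOTAL. It was 0.10 in INPUT at a distance of 2 and 0.02 at a distance of 20. The pairs share libraries, what the numbers follow is not given in the sources used here, and these values are a description.

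Several small subfamilies rested on single loci, and the calls above were set beside them. X6B_LINE has 47 loci, and X6B_LINE_139 alone held 86.4% of its summed locus means in INPUT (68.9 of 79.8), 74.7% in TOTAL and 34.2% in IP. The log2 ratio of IP to INPUT over the summed loci was -1.70 with this locus and 0.57 without it. Against TOTAL it was -0.68 with and 0.70 without. In the locus tables the lower value of X6B_LINE in IP thus rested on 1 copy, and the other loci had a higher sum in IP (16.2) than in INPUT (10.9). A read adds 0.331 to 0.419 to that IP mean and 0.244 to 0.329 to an INPUT mean. Both sums therefore rest on few reads, and their difference was not tested.

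CR1_Mam has 65 loci, and CR1_Mam_60 held 72.7% of its sum in BO (116 of 159), 65% in INPUT, 63.5% in TOTAL and 25.1% in IP beside INPUT. The log2 ratio of IP to BO was -1.87 with this locus and -0.42 without it, and that of IP to INPUT was -0.61 with and 0.48 without. For Plat_L3, Plat_L3_76 and Plat_L3_338 stood at 48.0 and 32.8 in IP beside INPUT, of a sum of 135 over 109 loci. The log2 ratio of IP to TOTAL was 0.80 with both, 0.44 without Plat_L3_76 alone and 0.05 without both, so that Plat_L3 did not rest on a single locus. These loci were among those 2-fold higher in IP in every table. L4_B_Mam rested in IP on L4_B_Mam_171, with 46.5% of its sum, and its log2 ratio of IP to INPUT moved from 0.52 to -0.02 without that locus. X7A_LINE differed, since its highest locus in INPUT held 34.6% and the log2 ratio of IP to INPUT was -1.49 with it and -1.09 without it. The loci left out were those with the most signal on the side that set the direction, a choice that favours a move of the ratio toward the other side.

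**Figure D5:**
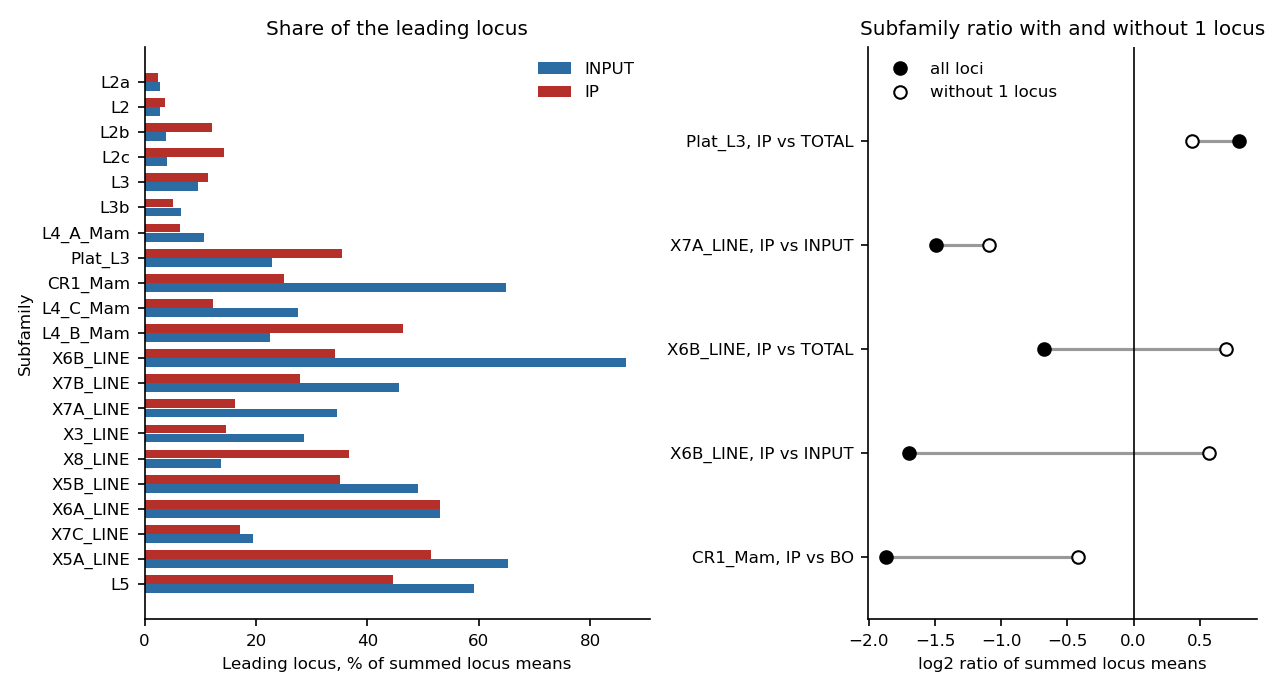
Left, the share of a subfamily's summed locus means held by its highest locus (x axis, percent) in INPUT and in IP, with the 21 tested subfamilies ordered by abundance. Right, the log2 ratio of summed locus means with all loci (filled) and without the highest locus of the named group (open), which for X6B_LINE moves from -1.70 to 0.57 against INPUT.

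L2a and L2 were spread over many loci. The highest locus of L2a held 2.84% of its sum in INPUT and 2.34% in IP, and that of L2 2.7% and 3.67%, with 7.53% in TOTAL. L2b_1362 held 12.1% of the L2b sum in IP beside INPUT, and leaving it out moved the log2 ratio of IP to TOTAL from 0.13 to -0.01 and that of IP to INPUT from -0.06 to -0.19. The log2 ratio of IP to BO for L2b was -0.36 with it and -0.51 without it. L2c_11255 held 14.2% of the L2c sum in IP, 8% in BO, 4.1% in INPUT and 4.34% in TOTAL. The log2 ratio of IP to TOTAL for L2c, which the subfamily test had called higher, was 0.09 with this locus and -0.07 without it, and that of IP to INPUT was -0.15 with and -0.31 without. That of IP to BO was -0.55 with and -0.66 without. Over summed locus means the log2 ratio of L2a to L2c was 0.70 in IP, 0.83 in INPUT, 0.85 in TOTAL and 0.99 in BO. Without L2c_11255 it was 0.92 in IP, 0.89 in INPUT, 0.91 in TOTAL and 1.11 in BO. This locus was the highest of L2c in every group and held its largest share in IP, so by arithmetic its removal raises the ratio there the most. L3_8400 held 22.6% of the L3 sum in BO and 11.3% in IP beside INPUT, and the log2 ratio of IP to BO for L3 was -0.69 with it and -0.50 without it.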

How the data were processed

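RNA was sequenced as stranded 75-base single reads. The authors aligned it to mm10 with STAR 2.6.0c, reassigned ambiguous reads with Telescope 1.0.3 and normalized the sums per subfamily with EBSeq 1.26.0. The deposited subfamily values are a normalized signal (upper quartile, the 75th percentile over subfamilies being 484 in each library). Whole reads could be recovered for 100% of values within 0.1 read, which gave the depths. Single loci come from 3 deposited tables, each normalized separately with DESeq2 1.24.0, whose signal columns are group means, called the authors' means here. Their columns of fold changes, errors and p-values were not used.

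Here, limma 3.58.1 in R 4.3.3 was run on log2(value + 1) of subfamilies with a mean of at least 10, 4 groups in 1 fit, with calls past 2-fold at an adjusted p under 0.05. Fold changes are on this scale, which understates changes of low subfamilies. edgeR 4.0.16 and DESeq2 1.42.0 on recovered reads were alternatives. On simulated data for IP vs. BO the fit recovered 100% of 200 changed subfamilies, with 1 false call, over 1180 subfamilies. Recovery was not tested separately for subfamilies with few reads. In the real data X5A_LINE, at 1.72 in IP vs. TOTAL with 2 to 16 reads in TOTAL, was not called (adjusted p = 0.0664 from limma). Per-library values were given for the 6 most abundant subfamilies, those called at any size and L4_A_Mam, the most abundant RTE subfamily. Loci were given for the 10 highest means over the 6 group values and for means of at least 50 in all 3 tables. Further loci were named as examples after their values had been seen. The members and lists were chosen with earlier results of these data known. In INPUT and TOTAL, libraries with the same number deviated together from their group means (r = 0.629, 0.339 and 0.321), so that a fit with the number as a block stands beside that comparison. P-values measure the spread between these libraries. Coordinates and sequences of loci were not used here.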

Additional observations from a re-analysis of the deposited data

How the results depend on the processing

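The 2-fold calls of subfamilies depended most on scaling. With libraries scaled to their totals of repeat reads, 19 subfamilies were higher in IP vs. TOTAL and 16 in INPUT vs. TOTAL, where 85.9% and 54% of all subfamilies were. This scaling left 0 lower in IP vs. INPUT, IP vs. TOTAL and BO vs. INPUT, beside 1.53%, 1.44% and 1.78% of all subfamilies. At any size this scaling gave 19 higher in IP vs. TOTAL and 17 in INPUT vs. TOTAL, where 90.7% and 78.1% of all subfamilies were. It gave 1 higher in IP vs. INPUT, beside 12% of all subfamilies. It gave 0 lower in IP vs. TOTAL, IP vs. INPUT, IP vs. BO and BO vs. INPUT, beside 1.44%, 1.53%, 1.44% and 1.78% of all subfamilies. It turned the sign of L2 (0.24) and L2a (0.18) in IP vs. BO, of L2a in IP vs. INPUT (0.35) and of X7A_LINE in IP vs. TOTAL (0.44), while the medians of all subfamilies moved by similar amounts.

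Past 2-fold, 1 subfamily was lower in IP vs. INPUT with a pseudocount of 10 and 0 with a mean of at least 100. In IP vs. TOTAL, 0 were lower with a pseudocount of 10, a mean of at least 100, a fit of the compared groups alone, edgeR or DESeq2. In BO vs. INPUT, 1 was higher without a filter, and 0 were lower with a mean of at least 100 and 2 when scaled to reads on transposable elements or with edgeR or DESeq2. At any size in IP vs. BO, 1 was higher with a mean of at least 100, 2 with median-ratio factors, with scaling to reads on transposable elements, with edgeR and with DESeq2, and 1 was lower with that scaling. In IP vs. INPUT, 1 was higher with median-ratio factors or a fit of the compared groups alone, and 2 with DESeq2. In IP vs. TOTAL, 1 was higher without a filter, with scaling to reads on transposable elements or in a fit of the compared groups alone, 4 with median-ratio factors or DESeq2, and 0 were lower with a mean of at least 100 or in a fit of the compared groups alone. In INPUT vs. TOTAL, 2 were higher with DESeq2, beside 2.63% of all subfamilies. In BO vs. INPUT, 1 was higher without a filter and 1 lower with a mean of at least 100. A higher mean leaves fewer subfamilies to test, and for the other settings the cause was not tested. The other counts of this paragraph and those of the next stand without the share over all subfamilies. They show how far the counts moved and are no result about the members.

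Leaving out 1 library at a time, the 2-fold counts were 1 to 2 lower in IP vs. INPUT, 0 to 1 higher and 0 to 1 lower in IP vs. TOTAL and 1 to 1 lower in BO vs. INPUT. At any size they were 3 to 4 lower in IP vs. BO, 0 to 1 higher and 2 to 4 lower in IP vs. INPUT, 0 to 2 higher and 0 to 1 lower in IP vs. TOTAL, and 0 to 1 higher and 2 to 3 lower in BO vs. INPUT.

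With the replicate number as a block over all 4 groups, 1 subfamily was higher past 2-fold in IP vs. TOTAL (X5A_LINE, 1.72), 4 were higher at any size there and 1 in IP vs. BO, beside 2.88%, 10.8% and 12.5% of all subfamilies. With the block in INPUT and TOTAL alone, 4 were higher at any size, beside 7.37%. Of 18 pairs with the same number, 8 had a correlation over 0.1 (range -0.142 to 0.629), and only in INPUT and TOTAL were all 3 pairs over it. Between INPUT and BO they were 0.295, 0.0615 and 0.558, and whether these libraries share an extract is not given.

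For loci, a mean of at least 50 left 11 members beside BO, of which 1 was higher in IP and 6 lower. Beside INPUT it left 10, with 2 higher and 1 lower, and beside TOTAL 12, with 2 higher and 3 lower. The share of all repeat loci at that mean is not given here, so these counts are no result about the members. Centring IP vs. BO on the median gene gave 7 higher and 76 lower, and centring on the median repeat locus gave 25 higher and 30 lower. Of the log2 fold changes of named subfamilies under alternatives, judged by an adjusted p under 0.05 at any size of change, 718 kept direction and their side of that threshold, 33 that were past it in neither setting changed sign, 40 lost it, 55 gained it (4 of them with the other sign) and 4 values past it changed sign. Depth limits small subfamilies, with 9 to 75 reads of X7A_LINE per library of INPUT and IP. The alternative on the position of loci relative to genes was not run, since positions were not used here. Scaling to reads on transposable elements and the block in INPUT and TOTAL alone were chosen after seeing the data.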
